A study of Homo sapiens with 10 samples.

Results

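Steady-state transcript levels were compared between the HL60 and the SUDHL4 cell line, across the 10042 genes, of 20591 in the deposited table, that reached 5 normalised counts per 1000000 reads (CPM) in at least 1 of the 2 libraries. HL60 is a human promyelocytic leukaemia line, whose cells resemble an early stage of neutrophil formation. SUDHL4 is a human diffuse large B cell lymphoma line of germinal-centre type. Both carried the genotype label WT, grew without treatment in RPMI with 10% serum, and gave total RNA at day 0. The series holds 10 bulk RNA libraries: the pure lines HL60, SUDHL4, K562 (an erythroid leukaemia line) and THP1 (a monocytic leukaemia line), and 6 mixtures of these 4 lines in ratios that the labels do not give. Each line is 1 library, so differences have no replicate check, no p-value is given, and only their size is described.

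Promyelocytes fill their primary granules with myeloperoxidase and serine proteases, under transcription factors of the C/EBP family, PU.1 and GFI1. Germinal-centre B cells instead carry a B cell receptor, present peptides on class II molecules and mutate their antibody genes under the repressor BCL6. The lines thus stand for the myeloid and the B lymphoid branch of blood formation.

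Reads derived from the deposited values, summed over the deposited genes, came to 33050514 in HL60 and 27166921 in SUDHL4. Over the series these sums ran from 24985570 to 36607612. The number of genes at 5 or more was 9028 in HL60 and 8936 in SUDHL4. A gene with 0 reads is limited here to 3 reads, which is 0.117 normalised CPM in HL60 and 0.129 in SUDHL4, and folds against such a gene are lower bounds. All 8 promyelocyte markers examined, MPO, ELANE, PRTN3, AZU1, CTSG, CEBPE, CD33 and CSF3R, were at 45.4 or more in HL60 and at 0.643 or less in SUDHL4. The B cell markers MS4A1, CD79A, CD79B, PAX5, BCL6, MME and POU2AF1 were at 12.1 or less in HL60 and at 264 or more in SUDHL4, so both line names fitted their markers. Of the monocyte markers, CD14 was at 0.117 and CSF1R at 0.352 in HL60, against 0 and 0.863 in SUDHL4. The 3 monocyte markers that reached 5 in either library, LYZ, S100A8 and S100A9, were all at least 4-fold higher in HL60.

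Differences are log2((HL60 + 1) / (SUDHL4 + 1)), and a gene is called higher or lower in HL60 when this reaches 2, about 4-fold. By this measure 1003 genes, or 9.99%, were higher in HL60 and 943 genes, or 9.39%, were lower. The other 8096 genes, or 80.6%, were within 4-fold, and 6191 (61.7%) lay within 2-fold. The median over all compared genes was 0.12, with quartiles of -0.62 and 0.82. Scaling both libraries to total reads in place of the authors' scaling gave 921 genes higher and 1007 lower, which turned a share of 51.5% higher among called genes into 47.8%, and moved the median of all genes to -0.03. Scaling on housekeeping genes gave 851 higher and 1062 lower, with 44.5% higher among called genes and a median of -0.17. List medians are therefore given relative to the median of all compared genes wherever that matters.

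**Figure D1:**
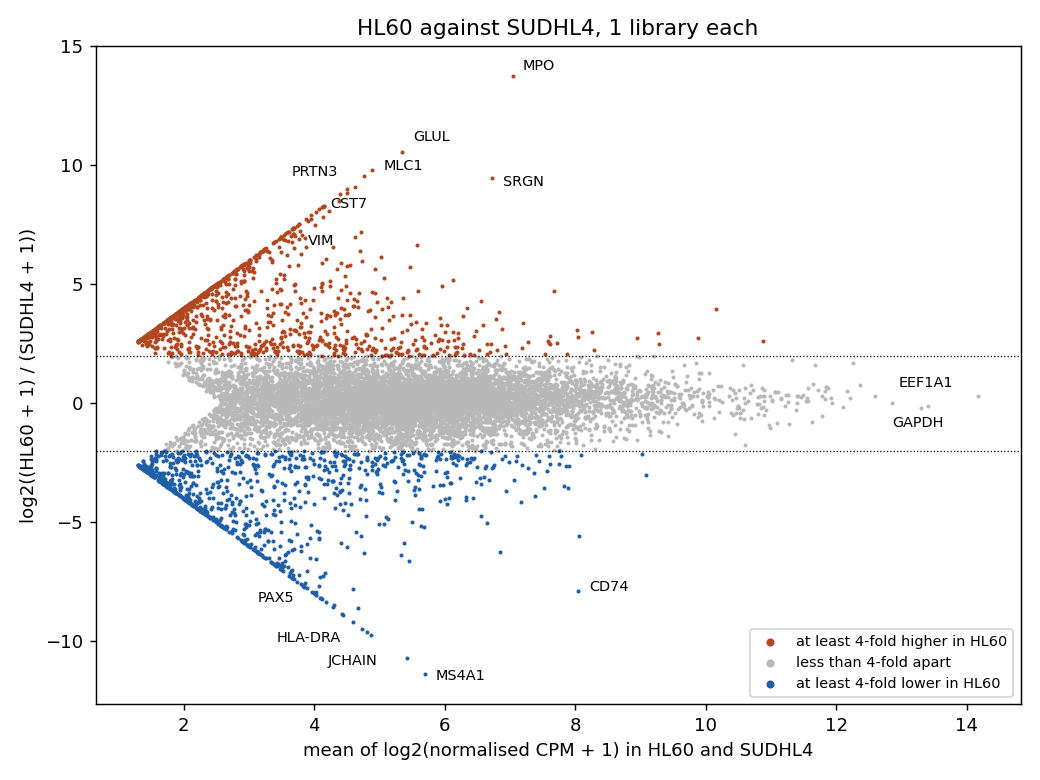
Each point is 1 of the compared genes that may be named, with the mean of log2(normalised CPM + 1) in HL60 and SUDHL4 on the x axis and log2((HL60 + 1) / (SUDHL4 + 1)) on the y axis. Dotted lines mark a difference of 2 either way. MPO stands alone at the top at 13.76, MS4A1 lies lowest at -11.38, and the diagonal edges hold genes near 0 in 1 of the libraries.

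Many of the called genes were on in 1 line and close to silent in the other. Genes called higher had a median level of 28.3 in HL60 and 0.312 in SUDHL4, and 326 of them had 0 reads in SUDHL4. Genes called lower had a median level of 0.553 in HL60 and 32.4 in SUDHL4, and 255 of them had 0 reads in HL60. At a stricter 32-fold, 190 genes were higher and 185 lower. A gene that entered only through the library where it was high had to be higher there, though not always by 4-fold. These counts and the list counts below are therefore descriptions. In bulk RNA a higher level cannot be told apart between more RNA per cell and more cells that express the gene.

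The 12 genes furthest above SUDHL4 were led by MPO, the peroxidase of neutrophil granules. MPO stood at 15645.5 in HL60 and 0.129 in SUDHL4, where it had 3 reads, against 0.212 in K562 and 9.88 in THP1. It alone made up 1.41% of the HL60 column, and its ratio was 121735 with a 95% counting interval of 48597.9 to 688693. The gene lies on chromosome 17, 58269856 to 58280935 in GRCh38. PRTN3, which encodes proteinase 3 of the same granules, was at 740 in HL60 and had 0 reads in SUDHL4, so it was at least 5756-fold higher. SRGN, the proteoglycan that packs granule proteases, was at 2788 in HL60 and 2.99 in SUDHL4. All 3 encode granule components.

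The other genes of the top 12 have varied roles. GLUL, or glutamine synthetase, was at 1578 in HL60 and 0.0551 in SUDHL4, which is 1 read. PHGDH, the first enzyme of serine synthesis, was at 316 in HL60 with 0 reads in SUDHL4. MLC1, a membrane protein best known in astrocytes, was at 881 in HL60 with 0 reads in SUDHL4. GLUL was also present in K562 (2082) and THP1 (458), and PHGDH in K562 (85.1) and THP1 (136). APP, the amyloid precursor protein, was at 576 in HL60 and 0.0551 in SUDHL4, and ANPEP, the myeloid surface peptidase CD13, was at 439 in HL60 and 0 in SUDHL4. SERPINB10 (508 in HL60), YBX3 (488), ITM2C (399.6) and LPCAT2 (311) completed the 12 and had at most 0.0918 in SUDHL4.

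The 12 genes furthest below SUDHL4 were mostly B cell surface, antibody and class II genes. MS4A1, which encodes the antigen CD20, had 0 reads in HL60 and 2669 normalised CPM in SUDHL4, and was at least 22749-fold lower. It lies on chromosome 11, 60455752 to 60470760 in GRCh38. JCHAIN, the joining chain of polymeric antibodies, had 1 read in HL60 (0.0503) and 1751 in SUDHL4. HLA-DRA, the class II alpha chain, had 0 reads in HL60 and 852 in SUDHL4. CD22, a sialic acid-binding inhibitory receptor, had 0 reads in HL60 and 782 in SUDHL4. All 4 of these were thus at or near 0 in the promyelocytic line.

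Of the remaining 8, IGHG4 (708 in SUDHL4), DTX1 (577), FCRLA (473), HLA-DPA1 (460), CD27 (379) and HTR3A (327) had 0 reads in HL60. DTX1 is a regulator of Notch signalling and HTR3A a serotonin-gated ion channel subunit. CD79B, a signalling chain of the B cell receptor, was at 0.285 in HL60 and 504 in SUDHL4. MME, the peptidase CD10 of germinal-centre B cells, was at 0.0503 in HL60 and 367 in SUDHL4.

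**Figure D2:**
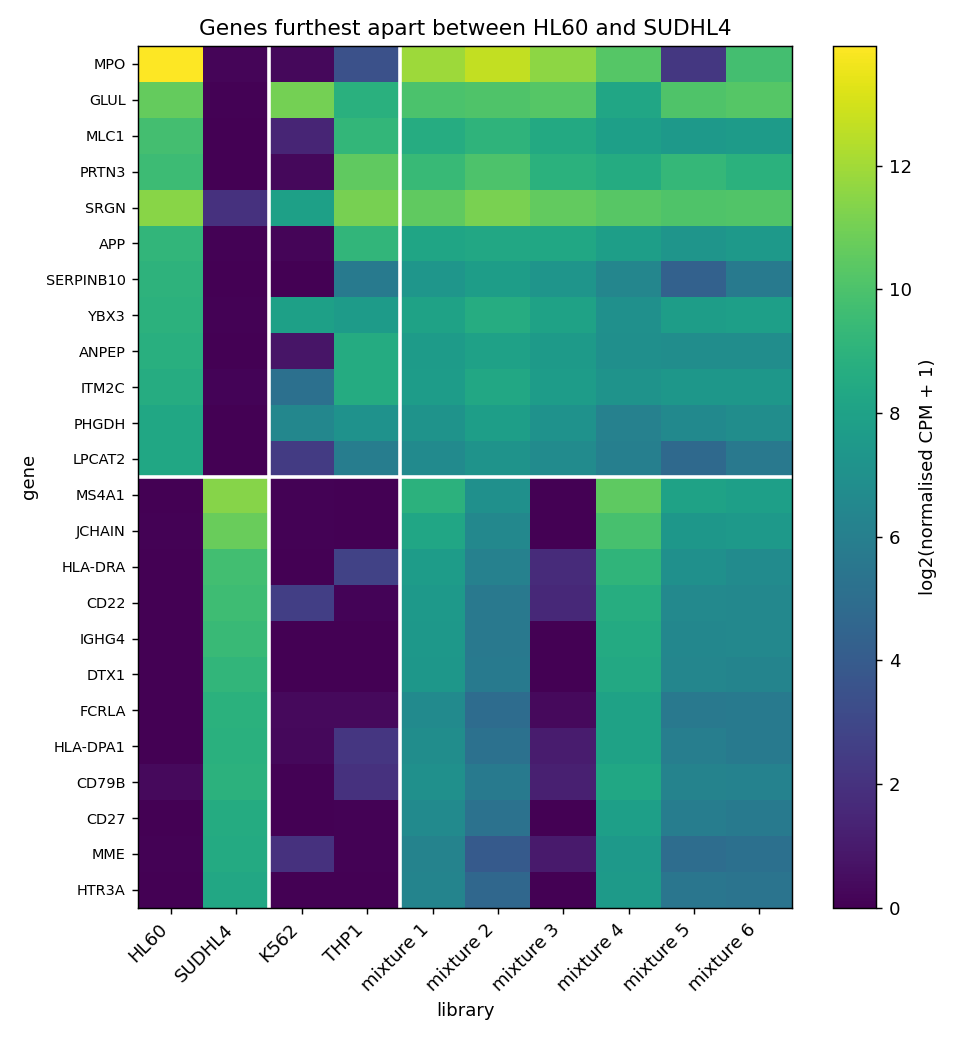
Rows are the 12 genes furthest above and the 12 furthest below SUDHL4, columns the 10 libraries, and colour is log2(normalised CPM + 1). The upper block is bright in HL60, dark in SUDHL4 and often bright in THP1, while the lower block is bright in SUDHL4 and dark or dim in the other 3 pure lines.

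Most genes on either side were also present in K562 or THP1, but the shares differed. Of the 1003 genes called higher, 329 also reached 5 in THP1 but not K562, 56 in K562 but not THP1, 509 in both and 109 in neither. Of the 943 genes called lower, 189 reached 5 in THP1 but not K562, 94 in K562 but not THP1, 293 in both and 367 in neither. In shares, 10.9% of the genes higher in HL60 and 38.9% of the genes lower in HL60 were below 5 in both other lines.

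Primary granule genes were higher in HL60 almost without exception. Of 20 listed, 19 were in the table, 15 were compared, 14 were called higher against a background of 9.99%, and none was lower. The list median was 6.16. Besides MPO and PRTN3 it held the serine proteases ELANE (119 in HL60, 0 in SUDHL4), CTSG (77.2 and 0) and the protease-like AZU1 (74.2 and 0.0551). CST7, a cathepsin inhibitor, was at 264 in HL60 and 0 in SUDHL4, and MS4A3, a membrane protein of granulocyte progenitors, at 165 in HL60 and 0 in SUDHL4. Genes of eosinophil-type granules were present too, with CLC at 56.9, RNASE2 at 46.7, EPX at 31.0 and PRG2 at 8.16 in HL60, all with 0 reads in SUDHL4. EPX is a close relative and neighbour of MPO on chromosome 17, so some of its reads may be shared. The exception was SERPINB1, a protease inhibitor, at 58.4 in HL60 and 47.4 in SUDHL4.

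Genes of the later granules, made after the promyelocyte stage, were largely silent in both lines. Of 10 listed genes in the table, only CHI3L1 and CAMP reached 5. CHI3L1, a chitinase-like glycoprotein, was at 15.8 in HL60 and 0.0551 in SUDHL4. CAMP, the cathelicidin precursor, ran the other way with 0.0503 in HL60 and 20.5 in SUDHL4. LTF, the lactoferrin gene, was at 0.0838 in HL60 and 0.165 in SUDHL4, and LCN2 at 0 in HL60 and 0.0551 in SUDHL4. None of the 8 subunit genes of the phagocyte NADPH oxidase was called, where 19.4% of all compared genes were called either way. CYBB, its membrane catalytic subunit, was at 69.9 in HL60 and 172 in SUDHL4, and NCF4, a cytosolic subunit, at 189.5 in HL60 and 141 in SUDHL4. NCF1, another cytosolic subunit with near-identical pseudogenes, was at 45.5 in HL60 and 163 in SUDHL4, a difference of -1.82 that passed the threshold with housekeeping scaling.

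Among 16 myeloid transcription factors, 12 were compared, 6 were higher in HL60 against a background of 9.99% and 1 was lower against 9.39%, with a median of 2.40. GFI1, a repressor needed for neutrophil formation, was at 162 in HL60 with 0 reads in SUDHL4. CEBPE, which drives granulocyte maturation, was at 216 in HL60 and 0.202 in SUDHL4, and MYB, a progenitor factor, at 321 in HL60 and 5.09 in SUDHL4. NFE2 (90.2 in HL60, 0 in SUDHL4), HLX (9.34 and 0) and the retinoid partner RXRA (161 and 0.312) made up the 6. SPI1, which encodes PU.1, was at 237 in HL60 and 92.3 in SUDHL4, a difference of 1.35 below the threshold. RUNX1 was at 81.1 in HL60 and 61.6 in SUDHL4. IRF8, a factor of monocyte, dendritic and B cells, was the one called lower, with 0 reads in HL60 against 160 in SUDHL4 and 570 in THP1. CEBPA, the factor that opens the granulocyte programme, was low in both at 2.30 in HL60 and 0 in SUDHL4.

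Myeloid surface genes followed, with 10 of 13 compared genes higher in HL60 against a background of 9.99%, and 1 lower against 9.39%. The list median was 3.88. CD33 was at 89.7 in HL60 and 0.643 in SUDHL4, SIRPA at 102 in HL60 and 0.386 in SUDHL4, and FUT4, which makes the CD15 sugar, at 63.7 in HL60 and 0 in SUDHL4. CSF3R, the receptor of granulocyte colony-stimulating factor, was at 45.4 in HL60 and 0 in SUDHL4. FLT3, a progenitor growth factor receptor, was at 15.6 in HL60 and 0.129 in SUDHL4. CD38, listed here because early myeloid cells can carry it, was at 0.687 in HL60 and 157 in SUDHL4. ITGAM, the integrin CD11b of mature granulocytes, was low in both at 3.10 in HL60 and 2.00 in SUDHL4.

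B cell transcription factors were lower in HL60 for 12 of 19 compared genes against a background of 9.39%, with a median of -4.88. PAX5, which commits cells to the B lineage, had 0 reads in HL60 and 264 in SUDHL4. POU2AF1, the B cell cofactor of octamer-binding proteins, had 0 reads in HL60 and 291 in SUDHL4, and POU2F2, which encodes the octamer-binding protein OCT2, was at 0.419 in HL60 and 215 in SUDHL4. EBF1 (0 in HL60, 33.9 in SUDHL4), MEF2C (0 and 252), FOXO1 (0.352 and 211) and BCL6 (3.44 and 366) were also lower. Of the 6 factors within 4-fold, IKZF1 was close at 357 in HL60 and 385 in SUDHL4, while BCL11A was at 23.7 in HL60 and 65.2 in SUDHL4. XBP1, the regulator of the secretory apparatus, was instead higher, at 416 in HL60 and 20.3 in SUDHL4. IRF4 and PRDM1, which drive plasma cell formation, were at 0 and 1.22 in HL60 and at 0.129 and 0 in SUDHL4.

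To show where lineage motifs lie in genes of both directions, 5 promoters are printed from 250 bases before to 50 bases after the annotated start, from RefSeq on GRCh38.p14. Capitals mark the motif match, and each sequence reads 5′ to 3′ on the gene's strand. VPREB3 (chr22:23754376-23754675, minus strand), whose product is a pre-B cell receptor chain relative, had 0 reads in HL60 and 178 in SUDHL4, with an octamer word beginning 47 bases before the start. SERPINA9 (chr14:94476148-94476447, minus strand), a germinal-centre serpin at 0 in HL60 and 206 in SUDHL4, held the same word at 133 and at 96 bases before the start. GFI1 is shown with the promoter of its second listed start (chr1:92486050-92486349, minus strand), with the palindromic C/EBP word 142 bases before it, and the word was not found in the windows of its other 2 listed starts. PRTN3 (chr19:840749-841048, plus strand) and CEBPE (chr14:23119206-23119505, minus strand) held the PU.1 word at 88 and at 41 bases before the start. The PU.1 word is also in the promoters of both SUDHL4-high genes, unmarked, at 66 bases before the start of VPREB3 and 171 before that of SERPINA9.
VPREB3: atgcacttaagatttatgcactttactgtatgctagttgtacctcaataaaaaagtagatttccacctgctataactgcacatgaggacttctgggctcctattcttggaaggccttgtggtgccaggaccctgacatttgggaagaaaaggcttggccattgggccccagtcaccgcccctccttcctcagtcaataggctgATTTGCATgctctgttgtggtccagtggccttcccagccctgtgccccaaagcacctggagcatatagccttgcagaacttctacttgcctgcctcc
SERPINA9: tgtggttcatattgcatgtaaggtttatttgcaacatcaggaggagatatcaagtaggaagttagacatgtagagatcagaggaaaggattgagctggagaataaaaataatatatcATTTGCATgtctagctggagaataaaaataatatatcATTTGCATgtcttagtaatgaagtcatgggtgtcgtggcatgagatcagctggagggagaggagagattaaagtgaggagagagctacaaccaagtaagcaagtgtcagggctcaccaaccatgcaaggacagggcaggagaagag
GFI1: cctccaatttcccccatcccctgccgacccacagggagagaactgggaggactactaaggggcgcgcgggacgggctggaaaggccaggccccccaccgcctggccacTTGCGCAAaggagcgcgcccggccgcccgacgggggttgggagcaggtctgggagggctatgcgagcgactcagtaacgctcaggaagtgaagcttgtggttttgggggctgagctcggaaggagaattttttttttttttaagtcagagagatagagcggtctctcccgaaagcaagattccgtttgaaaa
PRTN3: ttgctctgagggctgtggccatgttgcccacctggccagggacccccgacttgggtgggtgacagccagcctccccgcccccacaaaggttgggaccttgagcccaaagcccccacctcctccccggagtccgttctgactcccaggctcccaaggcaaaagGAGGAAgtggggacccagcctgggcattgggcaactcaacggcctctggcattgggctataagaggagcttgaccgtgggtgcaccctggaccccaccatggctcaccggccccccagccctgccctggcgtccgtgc
CEBPE: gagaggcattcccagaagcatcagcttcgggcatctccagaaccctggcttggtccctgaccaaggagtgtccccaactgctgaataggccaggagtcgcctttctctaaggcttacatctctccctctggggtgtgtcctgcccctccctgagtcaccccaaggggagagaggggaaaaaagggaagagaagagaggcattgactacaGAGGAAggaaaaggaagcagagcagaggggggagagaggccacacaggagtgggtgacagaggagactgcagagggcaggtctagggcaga

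The same words were counted in all listed promoter windows outside chromosome 8, 11620 of them for 7916 of the compared genes. Every share below, also that of all windows in the table, leaves chromosome 8 out. The octamer word ATGCAAAT, or its reverse ATTTGCAT, was in 1.05% of windows of genes higher in HL60, 2.52% of windows of genes lower in HL60, 1.26% of all compared windows and 1.77% of all windows in the table. The C/EBP word TTGCGCAA, its own reverse, was in 0.175% of windows of genes higher in HL60 and 0.173% of those lower, below the 0.267% of all compared windows and above the 0.151% of all windows in the table. The PU.1 word GAGGAA, or TTCCTC, was in 30.2% of windows of genes higher and 30.8% of those lower, against 27.9% both of all compared windows and of all windows in the table. The E-box CAGGTG, or CACCTG, was in 20.5% of windows of genes higher and 20.6% of those lower, against 18.0% of all compared windows and 20.6% of all windows in the table. The C/EBP shares rest on 2 windows in each direction. Neither the PU.1 word nor the octamer word was found in the windows of AZU1, CD22 and CD79A. The C/EBP word was not found in the windows of PRTN3, AZU1 and CEBPE. No word contains another, and a match is a description of letters only.

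The B cell receptor and its signalling chain were lower in HL60 for 17 of 28 compared genes against a background of 9.39%. They were higher for 2 against 9.99%, and the list median was -4.12. CD79A, the partner of CD79B, was at 12.1 in HL60 and 1003 in SUDHL4, which is 83.0-fold lower with a counting interval of 74.9 to 92.5. The kinase BLK had 0 reads in HL60 and 299 in SUDHL4, and the adaptor BLNK 0 in HL60 and 55.8 in SUDHL4. Some more general kinases and lipases of the pathway were closer, although the kinase LYN, also in this list, was called lower, as was VAV2. BTK was at 140.5 in HL60 and 228 in SUDHL4, SYK at 221 in HL60 and 459 in SUDHL4, and PLCG2 at 151 in HL60 and 504 in SUDHL4, a difference of -1.74 that was called with housekeeping scaling. PTPN6, the phosphatase that restrains receptor signalling, was higher, at 343 in HL60 and 10.2 in SUDHL4. PIK3CD, a lipid kinase subunit, was at 241 in HL60 and 50.2 in SUDHL4, and this call ended with housekeeping scaling.

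Germinal-centre genes were lower for 16 of 21 compared against a background of 9.39%, and higher for 1 against 9.99%. The list median was -4.40. RGS13, a damper of chemokine signalling, had 0 reads in HL60 and 266 in SUDHL4, and MYBL1, a relative of MYB, 0 in HL60 and 38.1 in SUDHL4. LMO2, often used as a germinal-centre marker but also a stem cell factor, ran the other way at 74.4 in HL60 and 4.50 in SUDHL4. EZH2, the Polycomb methyltransferase of cycling germinal-centre cells, was at 147 in HL60 and 137 in SUDHL4.

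Of 13 immunoglobulin and related genes in the table, 7 were compared. In HL60 6 were lower against a background of 9.39%, and 1 was higher against 9.99%. The heavy chain constant genes IGHG4 and IGHG1 had 0 reads in HL60, with 708 and 100.007 in SUDHL4, and since their sequences are close copies, the split between them is uncertain. IGHM, IGHD and IGKC were not analysed here. A pair of related light chain-like genes on chromosome 22 went opposite ways. IGLL1, the surrogate light chain of early B cell precursors, was at 140.1 in HL60 with 0 reads in SUDHL4, and at 0 in K562 and 0.107 in THP1. IGLL5 had 0 reads in HL60 and was at 48.2 in SUDHL4. VPREB1, the usual partner of the IGLL1 protein, was at 0 in HL60 and 1.34 in SUDHL4.

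Plasma cell secretory genes had no common direction, with 3 of 9 compared genes higher against a background of 9.99%, and 2 lower against 9.39%. Their median was 0.31 above that of all genes, a difference that became -0.30 with housekeeping scaling. Beside XBP1, DERL3, a factor that removes misfolded proteins from the endoplasmic reticulum, was at 41.1 in HL60 and 3.54 in SUDHL4. MZB1, a helper of antibody assembly, was at 63.6 in HL60 and 140 in SUDHL4, while K562 and THP1 had 0. TNFRSF17, the plasma cell receptor BCMA, had 0 reads in HL60 and 23.9 in SUDHL4.

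**Figure D3:**
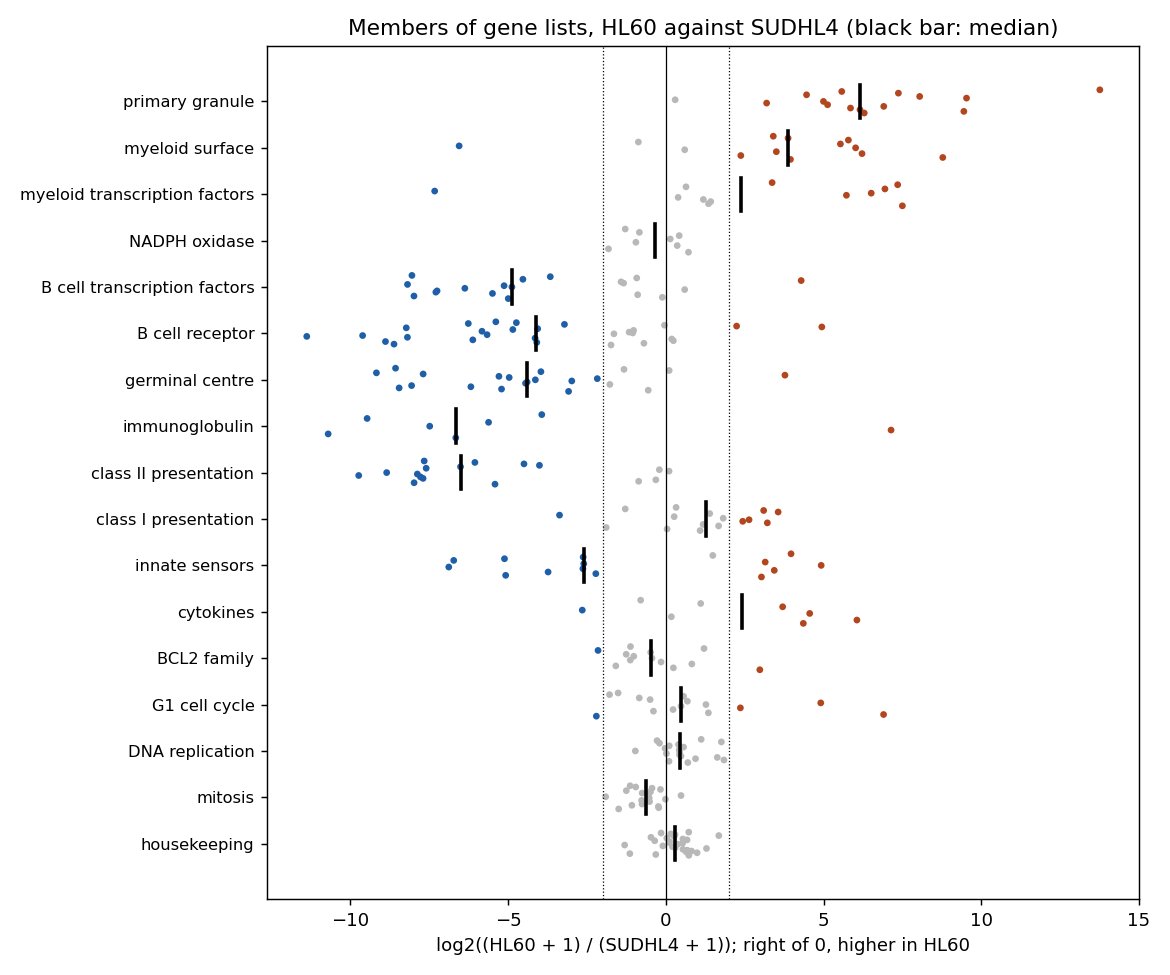
Each point is a compared member of a gene list, placed by log2((HL60 + 1) / (SUDHL4 + 1)) on the x axis, with black bars at list medians and dotted lines at 2 and -2. Primary granule genes lie to the right with a median of 6.16, class II genes to the left with a median of -6.51, and DNA replication, mitosis and housekeeping genes stay between the dotted lines.

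Antigen presentation split by class. Of 17 compared class II genes, 13 were lower in HL60 against a background of 9.39%, and none was higher against 9.99%. The list median was -6.51. CD74, the invariant chain, was at 16.2 in HL60 and 4045 in SUDHL4. CIITA, the master activator of class II genes, had 0 reads in HL60 and 15.1 in SUDHL4. The subunits of the factor that binds class II promoters with CIITA were present in both, with RFX5 at 133 in HL60 and 153 in SUDHL4 and RFXANK at 110 in HL60 and 102 in SUDHL4.

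Class I genes leaned towards HL60, with 5 of 16 compared genes higher against a background of 9.99%, and 1 lower against 9.39%. The list median was 1.29. HLA-B was at 765 in HL60 and 88.2 in SUDHL4, HLA-C at 378 in HL60 and 31.1 in SUDHL4, and their activator NLRC5 at 59.4 in HL60 and 5.49 in SUDHL4. The labels do not say how reads matching several HLA genes were counted, so these values are uncertain gene by gene. B2M, the shared light chain, was at 1149 in HL60 and 956 in SUDHL4, and CALR, a chaperone of class I loading, at 4718 in HL60 and 757 in SUDHL4.

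Innate sensors differed in both directions. Of 15 compared, 5 were higher against a background of 9.99% and 9 lower in HL60 against 9.39%, with a median of -2.60. The inflammasome genes PYCARD (59.2 in HL60, 2.85 in SUDHL4), CASP1 (29.4 and 0) and NLRP3 (9.84 and 0) were higher, as was TLR2 (8.53 and 0.165). The B cell-associated receptors TLR10 (0.117 in HL60, 131 in SUDHL4) and CD180 (0.0503 and 110) were lower, and so was the DNA sensor AIM2 (0.318 and 43.5). MYD88, the adaptor shared by most of these receptors, was at 12.6 in HL60 and 82.8 in SUDHL4. The inflammasome adaptor, protease and the sensor NLRP3 were thus on the HL60 side, and the sensors AIM2 and NLRC4 (1.06 in HL60, 8.57 in SUDHL4) on the SUDHL4 side.

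Cytokine genes were few in either line, and 4 of 8 compared were higher in HL60 with 1 lower, where 9.99% and 9.39% of all compared genes were. CXCL8, the neutrophil attractant, was at 69.3 in HL60 and 0.0551 in SUDHL4, TNF at 64.3 in HL60 and 2.18 in SUDHL4, and CCL2 at 22.6 in HL60 and 0 in SUDHL4. LTA, a lymphoid relative of TNF, was at 0 in HL60 and 5.27 in SUDHL4. Interferon-stimulated genes had 2 of 10 compared genes higher, near the background of 9.99%, and 4 lower against 9.39%, with IFIH1 at 21.7 in HL60 and 1.01 in SUDHL4 and OAS2 at 0.0503 in HL60 and 31.5 in SUDHL4.

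Receptors that position lymphocytes differed within families. Of 15 compared lymphoid receptor genes, 6 were higher in HL60 against a background of 9.99% and 5 lower against 9.39%. CXCR4, the receptor for the bone marrow chemokine, was at 163 in HL60 and 25.5 in SUDHL4, while CXCR5, the follicle-homing receptor, was at 0.486 in HL60 and 107 in SUDHL4. Among receptors for sphingosine-1-phosphate, S1PR4 was at 55.3 in HL60 and 0.0918 in SUDHL4 and S1PR3 at 22.98 in HL60 and 0 in SUDHL4. S1PR2, which confines B cells to the germinal centre, was at 0.251 in HL60 and 38.1 in SUDHL4.

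In the BCL2 family 11 of 13 compared genes (84.6%) were within 4-fold, near the 80.6% of all compared genes. BCL2, the survival gene, was at 105 in HL60 and 147 in SUDHL4, and MCL1, its relative, at 201 in HL60 and 438 in SUDHL4. BCL2A1, another survival member, was at 2.66 in HL60 and 15.3 in SUDHL4, and BCL2L2 was at 7.32 in HL60 and 0.0551 in SUDHL4.

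Of 15 compared genes of the G1 phase, 3 were higher in HL60 and 1 lower, and 11 (73.3%) were within 4-fold, against 80.6% of all compared genes. Among the D-type cyclins that start G1, CCND2 was at 147 in HL60 and 0.239 in SUDHL4, CCND1 at 29.1 in HL60 and 0 in SUDHL4, and CCND3 at 146 in HL60 and 56.9 in SUDHL4. SUDHL4 thus had 1 of the 3 cyclin D genes above 5 and HL60 had all 3. CDKN1B, an inhibitor of cyclin-dependent kinases, was at 26.2 in HL60 and 4.28 in SUDHL4, and CCNE2, an E-type cyclin, at 8.40 in HL60 and 42.2 in SUDHL4, and both were called. None of 19 DNA replication genes and none of 20 mitosis genes was called, against 19.4% of all compared genes called either way. Their medians were 0.31 above and 0.77 below that of all genes, respectively. The mitosis gene KIF20A, at -1.91, lay close to the threshold. Its difference became -2.05 when scaled to total reads and -2.18 when scaled on housekeeping genes, so either alternative called it lower. MKI67, the proliferation antigen, was at 764 in HL60 and 1278 in SUDHL4, and PCNA, the replication clamp, at 423 in HL60 and 260 in SUDHL4.

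Around CDKN2A on the short arm of chromosome 9, both lines had transcripts that K562 and THP1 lacked. CDKN2A, which encodes inhibitors of cyclin-dependent kinases and MDM2, was at 4.91 in HL60 and 25.3 in SUDHL4, and its neighbour MTAP, a methionine salvage enzyme, at 37.6 in HL60 and 24.3 in SUDHL4. Both genes had 0 reads in K562 and THP1. MLLT3, a fusion partner of MLL farther along the arm, was at 11.5 in HL60 and 0.0551 in SUDHL4.

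In glycolysis and glucose uptake 15 of 19 genes (78.9%) were within 4-fold, about the 80.6% of all compared genes. The hexokinase HK1 was at 9.47 in HL60 and 225 in SUDHL4, while its relative HK2 was at 125 in HL60 and 93.6 in SUDHL4. The phosphofructokinase PFKM was at 16.04 in HL60 and 265 in SUDHL4, while PFKL was at 359 in HL60 and 147 in SUDHL4. The glucose transporter SLC2A3 was at 28.98 in HL60 and 0.973 in SUDHL4.

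In a list of amino acid genes assembled after values were seen, 24 of 28 (85.7%) were within 4-fold and 4 were higher in HL60, near the 80.6% and 9.99% of all compared genes. These were GLUL, PHGDH, the glutamine carrier SLC38A5 (285 in HL60, 0 in SUDHL4) and the arginine synthesis enzyme ASS1 (36.4 and 0). The enzymes after PHGDH in serine and glycine synthesis were present in both lines, with PSAT1 at 344 in HL60 and 193 in SUDHL4, PSPH at 23.3 in HL60 and 71.8 in SUDHL4 and SHMT2 at 508 in HL60 and 585 in SUDHL4. Of these 4 enzymes, SUDHL4 had 0 reads for the first step and 71.8 or more for the others.

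Cholesterol genes had 16 of 19 (84.2%) within 4-fold, near the 80.6% of all compared genes. DHCR7, a late step of synthesis, was at 463 in HL60 and 81.9 in SUDHL4, and the exporter ABCG1 at 0.0503 in HL60 and 36.7 in SUDHL4. In iron handling, TFRC, the transferrin receptor, was at 1732 in HL60 and 220 in SUDHL4, CYBRD1 at 45.7 in HL60 and 0 in SUDHL4, and STEAP3 at 24.5 in HL60 and 0 in SUDHL4, the last pair being iron reductases.

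Cytoskeletal and membrane-linker genes were a list also assembled after values were seen. In it 10 of 28 compared genes were higher against a background of 9.99%, and 3 lower against 9.39%. The list median was 1.55, which is 1.42 above that of all compared genes. VIM, the intermediate filament vimentin, was at 150 in HL60 and 0.0918 in SUDHL4, ACTN1, an actin crosslinker, at 262 in HL60 and 0.165 in SUDHL4, and CD44, a hyaluronan receptor, at 87.8 in HL60 and 0 in SUDHL4. LMNA, the A-type lamin, was at 209 in HL60 and 4.39 in SUDHL4, while LMNB1, a B-type lamin, was at 136 in HL60 and 209 in SUDHL4. LSP1, a leukocyte actin-binding protein, was at 52.9 in HL60 and 631 in SUDHL4, and the myosin MYH10 at 1.76 in HL60 and 161 in SUDHL4.

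Among chromatin regulators, 18 of 19 Polycomb and MLL-type genes (94.7%) and 7 of 8 DNA methylation genes (87.5%) were within 4-fold, against 80.6% of all compared genes. The exceptions were JARID2, a Polycomb cofactor, at 85.7 in HL60 and 4.50 in SUDHL4, and TET2, which oxidises methylcytosine, at 40.6 in HL60 and 3.51 in SUDHL4. Among oncofetal genes, IGF2BP1, an RNA-binding protein of the embryo, was at 176 in HL60 and 0 in SUDHL4, and LIN28B, a blocker of let-7 maturation, at 15.4 in HL60 and 0 in SUDHL4. IGF2BP3 was present in both at 74.9 in HL60 and 152 in SUDHL4. All 28 housekeeping genes stayed within 4-fold.

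Some genes known as markers of other cell types also differed. LCK, the T cell kinase, had 1 read in HL60 and 252 in SUDHL4, and CD4 was at 274 in HL60 and 1.19 in SUDHL4, while CD3G and CD8A had 0 reads in both lines and CD3D had 0.0503 in HL60 and 0.0551 in SUDHL4. Summed over the 12 T and NK cell markers in the table, the level was 288 in HL60 and 268 in SUDHL4, nearly all from CD4 and LCK. The 14 erythroid and megakaryocyte markers summed to 11.4 in HL60 and 3.23 in SUDHL4, with HBA1 at 0 in both. The 14 monocyte markers summed to 119 in HL60 and 4.99 in SUDHL4, from LYZ, S100A9 and S100A8. The 10 stromal and epithelial markers summed to 151 in HL60, nearly all VIM, and 70.0 in SUDHL4, nearly all from the matrix gene DCN at 69.7, with EPCAM and COL3A1 at 0 in both. The part of other cell types in the differences above was not tested.

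A larger share of long non-coding RNAs was called lower than higher in HL60. Of 153 compared, 19 (12.4%) were higher in HL60 and 44 (28.8%) lower, with a median of -0.63, against 10.1% and 9.11% of 9461 protein-coding genes and a median of 0.13. AFAP1-AS1 was at 0.151 in HL60 and 104 in SUDHL4, IFNG-AS1 at 0 in HL60 and 56.9 in SUDHL4, and PCED1B-AS1 at 1.19 in HL60 and 48.2 in SUDHL4. On the other side, GATA2-AS1 was at 17.3 in HL60 and 0 in SUDHL4, and WT1-AS at 15.2 in HL60 and 0 in SUDHL4. Whether counting used the strand is not given, so reads of an antisense RNA and of its partner gene cannot be told apart. The labels name a total RNA kit and an mRNA kit without saying which made which library, so kit and line cannot be told apart either.

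Taking the longest annotated transcript of each gene, which need not be the one expressed, medians of called genes were slightly longer and richer in G and C. The median GC content was 50.2% for genes higher in HL60, 48.2% for genes lower and 47.1% for the rest. Their quartiles overlapped widely, at 43.1 and 58.3% for genes higher, 41.8 and 56.3% for genes lower and 41.2 and 55.1% for the rest. The median transcript length was 3744 bases for genes higher in HL60, 4148 bases for genes lower and 3625 bases for the rest. The part of these properties in the calls was not tested.

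By chromosome, genes of chromosome 8 stood lower in HL60 than those of any other. Over 340 compared genes the median was -1.0015, against medians between -0.36 on chromosome 13 and 0.37 on chromosome 22 elsewhere. Of these 340 genes, 29 were higher against a background of 9.99%, and 75 (22.1%) lower against 9.39%. The shift covered most of the chromosome. Of the 257 genes before position 120 megabases in GRCh38, 221 (86.0%) lay below 0, against 44.7% of all compared genes, and their median was -1.26. The 83 genes beyond had a median of -0.19. Stretches and the 120-megabase boundary were chosen after the values were seen.

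Relative to all genes, the chromosome 8 median was -1.13 in HL60 over SUDHL4, -0.92 in HL60 over K562 and -1.27 in HL60 over THP1, comparisons that share the HL60 library. Between the other lines it was 0.19 in SUDHL4 over K562, -0.28 in SUDHL4 over THP1 and -0.49 in K562 over THP1. MYC, PVT1 and CPNE3 on this chromosome were chosen after their values were seen. MYC, the growth regulator, lies beyond the boundary and was at 1292 in HL60 and 189 in SUDHL4, with 194 in K562 and 187 in THP1. Its neighbour PVT1, a non-coding RNA, was at 1.66 in HL60 and 10.4 in SUDHL4. CPNE3, a calcium-dependent membrane-binding protein gene, had 0 reads in HL60 and 241 in SUDHL4, and LYN, a kinase of the B cell receptor, was at 32.5 in HL60 and 310 in SUDHL4.

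**Figure D4:**
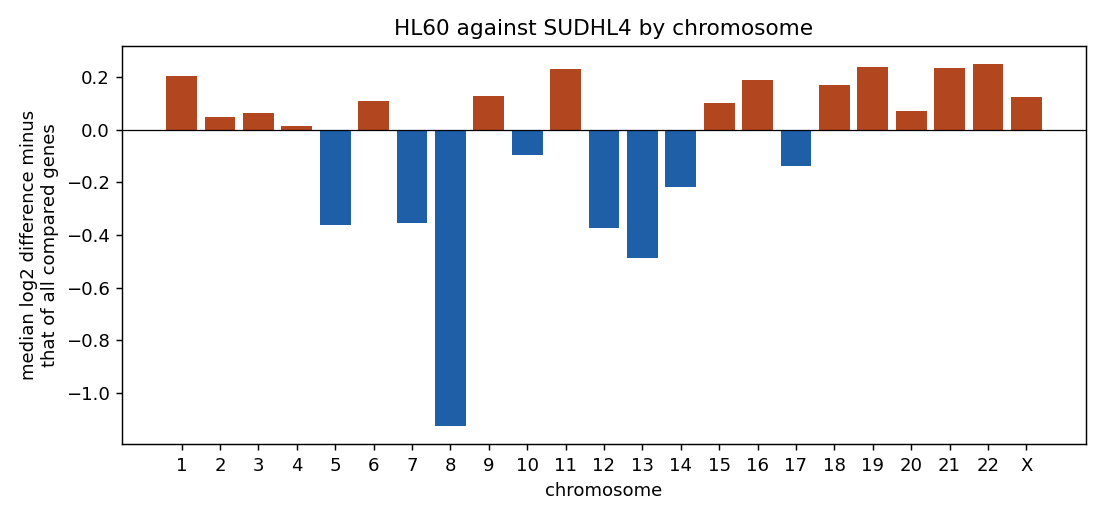
Bars give, for each chromosome on the x axis, the median log2((HL60 + 1) / (SUDHL4 + 1)) of its compared genes minus that of all compared genes. Chromosome 8 stands at -1.13, below every other chromosome plotted.

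The mixtures took no part in choosing genes and show how the levels carry over. For 107 genes at least 4-fold higher in HL60 than in each other pure line, the highest of the 6 mixture values was in mixture 2 for 103 genes and the lowest in mixture 5 for 103. Their median level as a percentage of pure HL60 was 29.5, 49.6, 27.5, 14.3, 4.05 and 10.9 in mixtures 1 to 6. For 410 genes set apart in SUDHL4 in the same way, mixture 4 was highest for all 410 and mixture 3 lowest for 382. Their medians were 24.1, 8.16, 1.75, 58.1, 13.6 and 13.1% of pure SUDHL4. The genes of a set share their libraries, so they are not independent of each other.

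Single genes showed the same order. MPO was at 3837, 6511, 3083, 1206, 3.82 and 869 in mixtures 1 to 6. MS4A1 was at 503, 126, 0, 1447, 257 and 233. Mixture 2 was thus high and mixture 5 near empty for the HL60 gene, and mixture 4 high and mixture 3 empty for the SUDHL4 gene. CCND2 reached 155 in mixture 2, above its level in each pure line, which was 147 in HL60, 0.239 in SUDHL4, 30.6 in K562 and 0.107 in THP1.

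**Figure D5:**
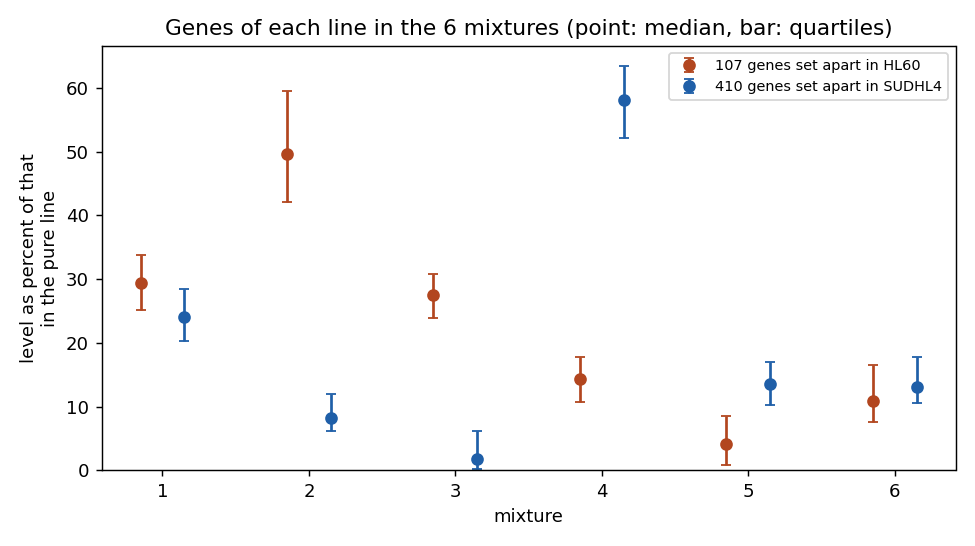
Points give the median, over genes set apart in HL60 or in SUDHL4, of the level in each mixture as a percentage of that in the pure line, and bars span the quartiles. HL60 genes peak in mixture 2 at 49.6% and SUDHL4 genes in mixture 4 at 58.1%.

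The threshold itself separated genes with near-equal differences. Just inside it were FURIN at 2.001, TFCP2 at 2.007, BCAP29 at 2.008, NT5DC2 at -2.005, MFSD13A at -2.008 and ZNF57 at -2.009. Just outside were SIVA1 at 1.999, MKS1 at 1.998, AGTRAP at 1.997, NT5C3A and LRRC37A3 at -1.998 and NLK at -1.9975. By reads and without correction for length, the 10 most abundant genes held 8.81% of the HL60 column and 7.33% of the SUDHL4 column, and 6 of them were the same genes. EEF1A1, a translation elongation factor, led both, at 20577 in HL60 and 16806 in SUDHL4.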

How the data were processed

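Bulk RNA-seq of the pure lines HL60 and SUDHL4 was compared, with K562, THP1 and 6 mixtures for reference, grouped by their labels. Per the submitters' processing notes, the tools were HISAT2, featureCounts and Cell Ranger ARC 2.0.0 and the build was hg19; their settings and the annotation were not stated. The values the authors deposited are a signal on the CPM scale, in 1 table whose columns had been rescaled, by an unstated method. Each value above 0 was a whole number of reads plus 0.5 times a constant step per column, within a tolerance of 0.01 for 100% of values, and reads, 95% Poisson intervals and the 3-read limit were derived from that step. They cover counting error only.

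Differences were log2((HL60 + 1) / (SUDHL4 + 1)) for genes with 5 or more in either library, called at 2 or more either way. The pseudocount of 1 makes folds of low genes too small. The 34 gene lists, the members and the motifs were chosen with earlier results of these data known, and 2 further lists after values were seen. Named genes were the 12 furthest apart in each direction, the 10 most abundant per library, list members with the largest differences or highest levels or that name the list, genes next to the threshold and the 5 long non-coding RNAs furthest apart in each direction; others are list members given as examples, chosen after their values were seen. Symbols absent from the table were filled by Ensembl ID for 3025 rows. Positions, lengths and classes came by Ensembl ID from GENCODE release 29 on GRCh38, with 9931 of the compared genes matched, and promoters from RefSeq on GRCh38.p14. Alternatives were total-read, housekeeping and trimmed-mean (TMM) scaling, other pseudocounts, minimum levels and fold thresholds. Python 3.11.15, pandas 2.3.3, NumPy 2.4.6, SciPy 1.17.1 and matplotlib 3.10.9 were used, and the calls were tested on simulated data. Results on some genes are not reported here.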

Additional observations from a re-analysis of the deposited data

How the results depend on the processing

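No paired analysis was possible because each line has 1 library and the comparison has no test. With TMM scaling 964 genes were higher in HL60 and 957 lower, and with a pseudocount of 0.1 there were 1080 and 1015. Relative to the counts reported, genes called higher and lower came to 56.6% and 59.6% as many with a pseudocount of 5, 60.8% and 62.5% with a minimum level of 20, 205% and 191% at 2-fold, and 62.1% and 59.2% at 8-fold. Of the genes called in the report, 921, 851 and 964 of 1003 stayed higher and 943, 943 and 934 of 943 stayed lower with total-read, housekeeping and TMM scaling. The median over all genes was -0.029 with total-read scaling, -0.17 with housekeeping scaling and 0 with no minimum level. No called gene named here changed sign under any alternative run.

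List medians changed sign as follows: amino acid genes to -0.0502, plasma cell genes to -0.47 and Polycomb and MLL-type genes to -0.23 with housekeeping scaling, and the last to -0.10 with total-read scaling; late granule genes to 1.35 and interferon genes to 0.63 with a minimum of 1, and to 0.73 and 0.18 with none; T and NK markers to -1.60 with a minimum of 1 and -0.47 with 20; lymphoid receptor genes to 1.75 and plasma cell genes to -0.19 with 20. The minimum level changes which members enter a list, and housekeeping scaling moves the median of all genes by -0.29. With 1 library per line, culture, kit and sequencing variation cannot be told apart from the line, and genes with 0 reads are known only to lie under 3 reads.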
